A study of Mus musculus with 4 samples.

Results

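The 70 genes described here are histone modifiers, bromodomain genes and chromatin remodellers, taken as the rows of the expression table whose symbols begin with Kat, Kdm, Setd, Brd or Chd followed by a digit where the family is numbered, begin with Smarc, or are Ezh1, Ezh2, Ep300 or Crebbp. They are 70 of 23359 rows. They were read in 7 groups: 9 acetyltransferases (the Kat genes with Ep300 and Crebbp), 7 Brd genes, 11 Setd genes, Ezh1 and Ezh2, 17 Kdm genes, 14 Smarc genes and 10 Chd genes.

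The RNA was that of stem-like tumour-initiating cells, isolated from liver tumours of C57BL/6 mice and cultured in medium with serum, EGF and dexamethasone, which all 4 cultures shared. One culture received vehicle only. The others received, for 16 hours, all-trans retinoic acid (ATRA, the ligand of the retinoic acid receptors) at 5 µg/ml, suberoylanilide hydroxamic acid (SAHA, vorinostat, an inhibitor of zinc-dependent histone deacetylases) at 0.5 µg/ml, or both compounds. The duration for vehicle, and whether the cells descend from 1 clone, are not stated in these sources. Each condition has 1 library, so replicate spread is unknown throughout and nothing could be tested or given an error.

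These genes encode the machinery that writes, removes and reads chemical marks on histones, and the motors that move nucleosomes. Acetyltransferases place acetyl groups on histone lysines, deacetylases such as the targets of SAHA remove them, and bromodomains bind them. SET domain enzymes place methyl groups on lysines and Kdm enzymes remove them. Smarc and Chd proteins are ATP-driven remodellers or their partner subunits, and the SWI/SNF complex built from Smarc subunits is mutated in many tumours.

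The promoters of 5 members that carry the main differences are shown as the 250 bases before the RefSeq start (GRCm38.p6, the assembly of mm10), each read 5′ to 3′ on the gene's own strand. Kat2b and its paralog Kat2a are shown because their levels parted, Smarcb1 and Brd1 because they were low with SAHA with and without ATRA, and Setd6 because it was high with both compounds. Capitals mark GC boxes (GGGCGG, or CCGCCC on the other strand) and CCAAT boxes (CCAAT or ATTGG).
Kat2b: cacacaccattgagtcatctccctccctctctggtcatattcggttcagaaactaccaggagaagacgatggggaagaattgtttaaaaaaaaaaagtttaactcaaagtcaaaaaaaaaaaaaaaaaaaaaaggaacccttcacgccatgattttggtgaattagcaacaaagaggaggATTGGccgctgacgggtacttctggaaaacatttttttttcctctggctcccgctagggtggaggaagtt
Kat2a: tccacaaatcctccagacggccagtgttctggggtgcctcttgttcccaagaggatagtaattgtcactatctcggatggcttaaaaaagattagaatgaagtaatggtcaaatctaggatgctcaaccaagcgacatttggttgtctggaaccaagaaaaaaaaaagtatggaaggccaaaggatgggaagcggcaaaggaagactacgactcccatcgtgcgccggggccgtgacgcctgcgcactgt
Smarcb1: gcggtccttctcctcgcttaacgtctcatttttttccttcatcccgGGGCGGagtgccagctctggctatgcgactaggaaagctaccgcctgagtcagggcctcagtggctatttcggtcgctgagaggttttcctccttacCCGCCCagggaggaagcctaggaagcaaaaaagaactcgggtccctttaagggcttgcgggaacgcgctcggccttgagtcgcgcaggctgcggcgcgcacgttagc
Brd1: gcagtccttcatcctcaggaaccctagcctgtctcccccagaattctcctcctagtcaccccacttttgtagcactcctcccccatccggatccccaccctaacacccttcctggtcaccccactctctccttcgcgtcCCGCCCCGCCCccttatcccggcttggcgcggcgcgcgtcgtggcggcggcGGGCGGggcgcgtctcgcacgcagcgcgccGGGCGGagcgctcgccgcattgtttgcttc
Setd6: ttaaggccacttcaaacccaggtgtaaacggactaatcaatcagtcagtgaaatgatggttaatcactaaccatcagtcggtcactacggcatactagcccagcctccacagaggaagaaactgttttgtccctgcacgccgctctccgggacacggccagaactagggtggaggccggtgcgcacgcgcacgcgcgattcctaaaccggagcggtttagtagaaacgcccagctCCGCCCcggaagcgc
These windows are chr17:53566721-53566970 (plus strand), chr11:100712468-100712717 (minus strand), chr10:75921615-75921864 (minus strand), chr15:88734220-88734469 (minus strand) and chr8:95715663-95715912 (plus strand).

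The windows of Kat2b and Kat2a held 6 and 11 CG dinucleotides, against 21 for Smarcb1, 27 for Brd1 and 20 for Setd6. The median was 20 over the 75 windows of the 55 members in the RefSeq table and 6 over all 32851 windows. A GC box was found on either strand in 47 of the 75 member windows (62.7%), against 32.7% of all windows. The Brd1 window had 4 GC boxes, Smarcb1 had 2 and Setd6 had 1, while none was found in the windows of Kat2b and Kat2a. A CCAAT box stood in the Kat2b window and in 36% of member windows, against 33.8% of all. The nuclear receptor half-site AGGTCA was in 6 of the 75 member windows (8%, against 14% of all) and in none of the 5 shown. The ETS core CGGAAG, found in 13.6% of all windows, was in the Setd6 window, where the letters follow the GC box directly and share no base with it. No match to the E-box CACGTG, the element TGACGTCA or the element TTGCATCA was in the 5 windows, which says only that these letters are not in them.

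Most of the 70 genes were expressed at low to middling levels. FPKM, a fragment count divided by transcript length and by the library's mapped fragments, is a level per length, so levels of different genes can be set side by side. The median member stood at 2.07 (vehicle), 1.85 (ATRA), 1.31 (SAHA) and 1.54 FPKM (both compounds). The highest in the vehicle library were the row Smarca5-ps at 16.2 FPKM, Setd8 at 14.4, Chd4 at 13.4, Brd2 at 12.9 and Setd3 at 10.1. Smarca5-ps is a processed pseudogene copy of Smarca5, so reads cannot be assigned with certainty between these rows. The lowest with vehicle were Setd1b at 0.163 FPKM, Kdm8 at 0.169 and Setd4 at 0.199. At least 1 FPKM was reached by 57 members with vehicle and 58 with ATRA, against 48 with SAHA and 49 with both.

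**Figure D1:**
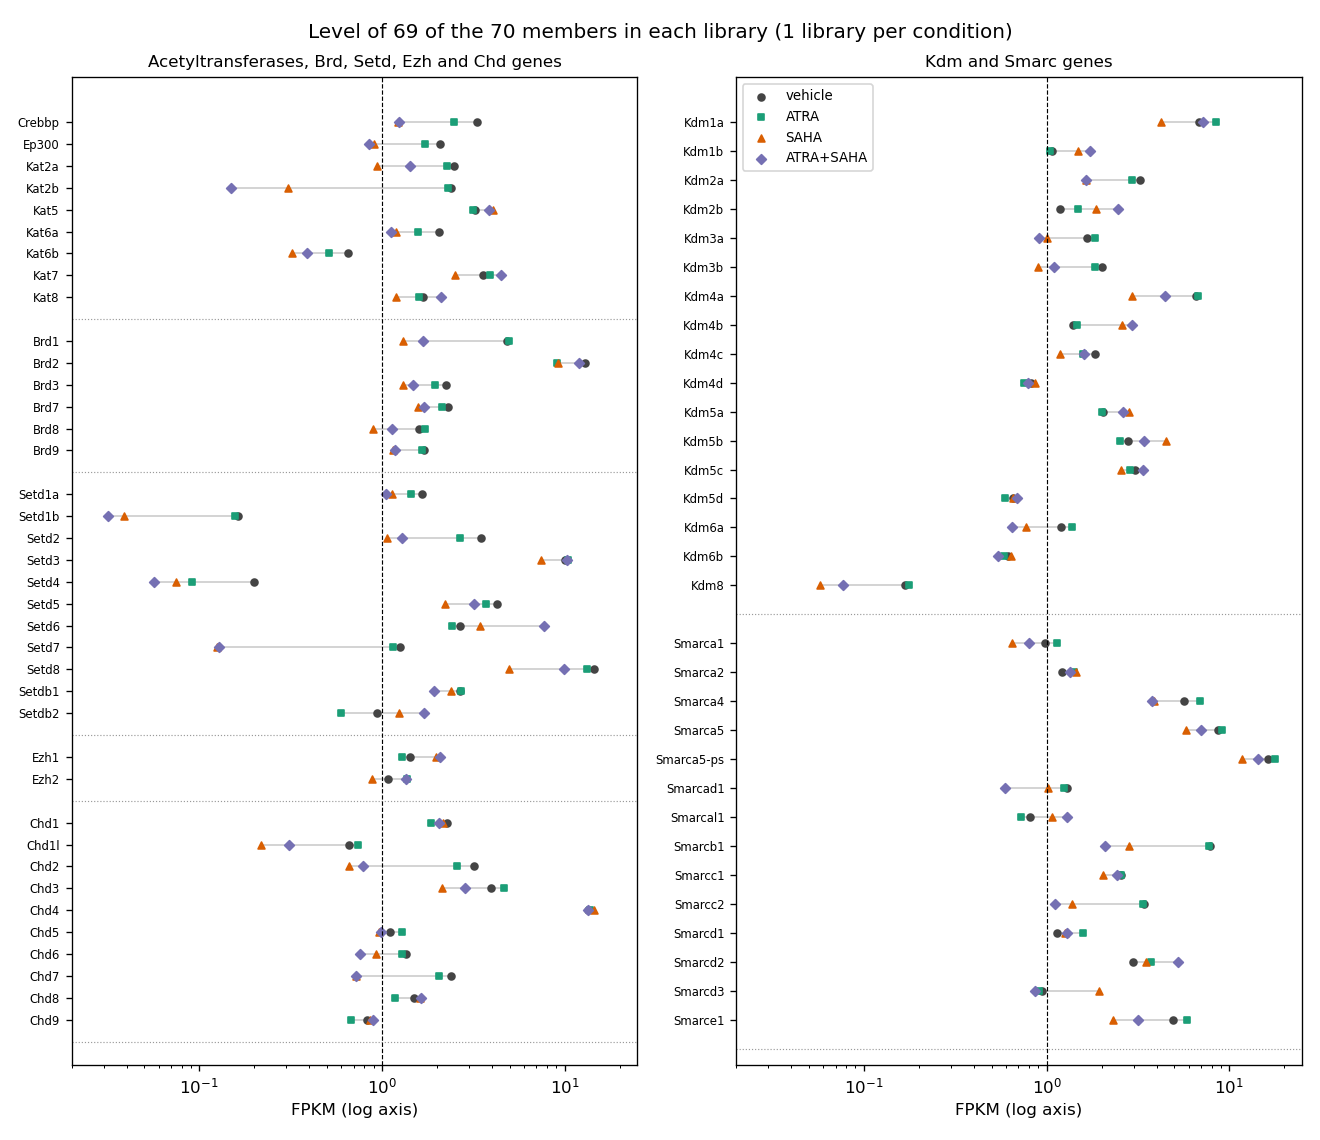
Level of 69 of the 70 members in FPKM on a log axis. Each gene has 1 marker per library (circle vehicle, square ATRA, triangle SAHA, diamond both), a grey line spans the 4 values and the dashed line is at 1 FPKM. For most Brd, Setd and acetyltransferase genes the vehicle and ATRA markers lie together to the right of the SAHA marker, while several Kdm genes show the opposite order. The values are as deposited.

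Differences are given as log2 ratios of FPKM + 1, and a ratio of 1 or more in size, in either direction, passes the 2-fold mark used throughout, which understates differences of low genes. Folds in words are ratios of the FPKM themselves. Counts cover the 58 members whose mean over all libraries reached 1 FPKM, beside all 8616 genes that passed the same filter. The 12 members below the filter were Chd1l, Chd9, Setd1b, Setd4, Setd7, Smarca1, Smarcal1, Kat6b, Kdm4d, Kdm5d, Kdm6b and Kdm8. Of these, 3 reached 1 FPKM in some library (Setd7, Smarca1 and Smarcal1), and 2 counted members, Setdb2 and Smarcd3, were under 1 FPKM with vehicle.

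The libraries differed in composition, and this bears on every ratio. The row Gm20594 took 18% of all FPKM in the vehicle library, 16.6% under ATRA, 33.9% under SAHA and 10.3% under the combination. Rescaling each library to an equal sum outside the 10 highest rows would add 0.43 on the log2 scale to FPKM in the SAHA library and take 0.18 and 0.23 from those of the ATRA and combination libraries. For SAHA against vehicle, the median counted gene had a log2 ratio of -0.12 as deposited and 0.19 after rescaling. Member values are therefore read beside the median of all genes. For a rough depth, each FPKM on a kilobase of transcript was taken as 97.4, 96.5, 97.4 and 103 fragments, library by library. These come from the median of low values inside a window set in advance. They depend on that window, so their likeness between libraries is not a finding and fragment counts are rough. The cells carried Vim, a mesenchymal filament gene (562 FPKM with vehicle), and Krt18, an epithelial keratin (95.3 FPKM), while the hepatocyte genes Alb and Hnf4a were at 0.0108 and 0.0186 FPKM. Markers of macrophages summed to 1.94 to 5.31 FPKM over the 4 libraries, nearly all of it Cd68, with the defining genes Csf1r and Ptprc at 0.0281 FPKM or less. Endothelial markers summed to 0.571 to 2.84 FPKM, nearly all of it Flt1, and lymphocyte markers to 0.0894 FPKM or less. Erythroid markers summed to 0.00592 to 0.952 FPKM. In absolute FPKM, though not in relative size, the lists that differed most were the bile duct and mesenchymal markers. Bile duct markers were at 340, 572, 942 and 436 FPKM with vehicle, ATRA, SAHA and both, nearly all of it Spp1. Mesenchymal markers were at 585, 451, 334 and 379 FPKM, nearly all of it Vim. Krt18 was at 95.3, 116, 69.1 and 45.3 FPKM in the same libraries. The part of such differences in the results was not tested.

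ATRA alone left these genes within a narrow range of vehicle. None of the 58 counted members passed the 2-fold mark in either direction, where 0.917% of all counted genes were higher and 1.20% lower. Their log2 ratios ran from -0.46 to 0.27 with a median of -0.02, against 0 for all counted genes. The lowest ratio was that of Brd2, a bromodomain reader of acetylated histones, at 12.9 FPKM with vehicle and 9.08 with ATRA. Crebbp and Setd2 followed at -0.31 and -0.29. The highest ratios, both 0.27, were those of Kdm1a, the demethylase LSD1, at 6.85 and 8.43 FPKM, and Smarcd1, a SWI/SNF subunit, at 1.14 and 1.58 FPKM. The acetyltransferases, Brd and Setd genes had medians of -0.06, -0.08 and -0.12, and the Smarc genes 0.10. After rescaling, the Smarc median was -0.07 and thus turned sign.

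With SAHA alone, 6 of the 58 counted members were lower and 0 higher: Kat2b, Setd8, Brd1, Chd2, Smarcb1 and Setd2. Of all counted genes, 16.0% were lower and 7.88% higher, so members past the mark were not more frequent than among genes at large. The median member stood at -0.37, against -0.12 for all counted genes, and 43 of 58 were below 0 (74.1%, against 56.6% of all). Rescaling moved the member median to -0.08 and that of all genes to 0.19, so that the distance between them was -0.25 as deposited and -0.26 rescaled. On the rescaled values 4 members were lower and 0 higher, beside 10.8% and 16.2% of all counted genes. In bulk RNA, fewer cells of a kind and less RNA per cell cannot be told apart.

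With both compounds, 5 of 58 were lower than with vehicle (Kat2b, Smarcb1, Chd2, Brd1 and Smarcc2) and 1 was higher (Setd6). Among all counted genes 12.6% were lower and 11.1% higher. The median member was at -0.29 and the median gene at 0.04, a distance of -0.33, which was -0.30 after rescaling. On the rescaled values 8 members were lower and 1 higher, beside 15.5% and 7.57% of all counted genes. The comparisons of SAHA and of the combination with vehicle share the vehicle library, so they are given side by side and not as support for each other.

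**Figure D2:**
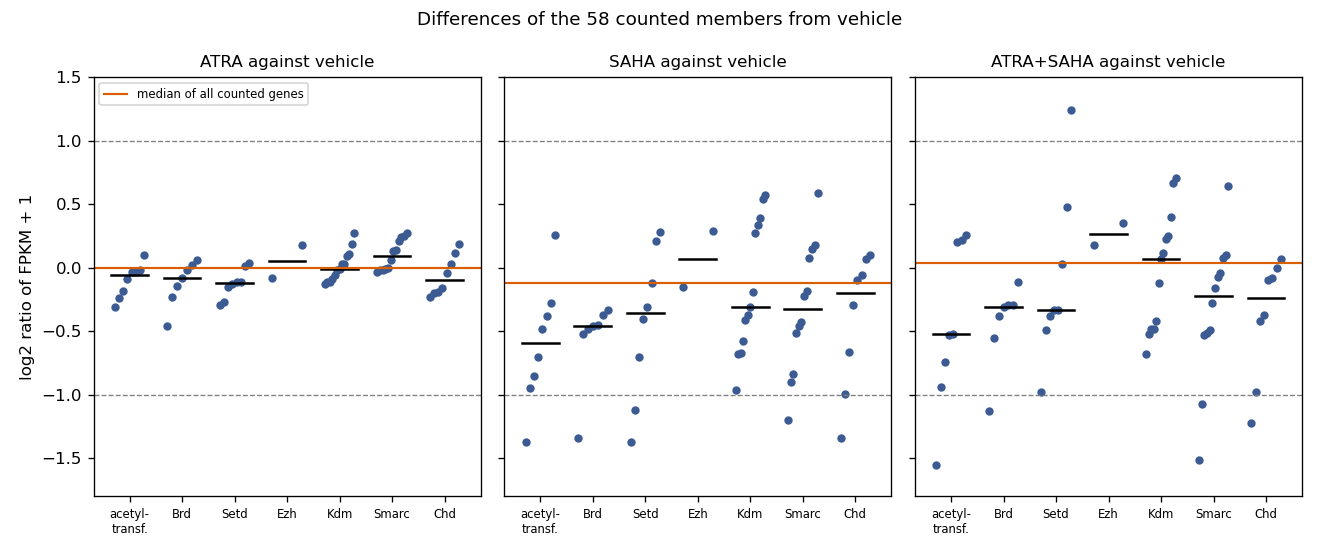
Log2 ratios of FPKM + 1 to vehicle for the 58 counted members, 1 point per gene, in 3 panels for ATRA, SAHA and both compounds. Black bars are group medians, the orange line is the median of all 8616 counted genes and dashed lines mark the 2-fold threshold. Points lie between -0.46 and 0.27 with ATRA and between -1.37 and 0.59 with SAHA, where all 7 Brd genes lie below the orange line.

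Of the 8 counted acetyltransferases, 1 was lower with SAHA (12.5%, beside 16.0% of all counted genes). Kat2b, which encodes PCAF, the acetyltransferase of SAGA-type coactivator complexes, was at 2.38 FPKM in the vehicle culture and 2.31 with ATRA, and at 0.306 with SAHA and 0.15 with both compounds (chr17:53566971-53672721). The vehicle and ATRA cultures were thus close together and both SAHA cultures were low, 7.76-fold and 15.8-fold below vehicle. Kat2b passed the filter on the mean only through the vehicle and ATRA libraries, in which it was high. By the depth estimate, and taking the longest coding transcript in GENCODE, the 4 values rest on about 1077, 1038, 139 and 72 fragments. Its paralog Kat2a, which encodes GCN5 and can take the same place in those complexes, was at 2.49, 2.27, 0.938 and 1.42 FPKM across vehicle, ATRA, SAHA and combination. Kat2a was also lower with SAHA, but by less (log2 ratios of -0.85 and -0.53, short of the mark). The ratio of Kat2b to Kat2a, which no scaling of a library can alter, was 0.953 with vehicle and 1.02 with ATRA, but 0.326 with SAHA and 0.106 with both.

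The paired coactivators Crebbp and Ep300, which encode CBP and its relative and place the acetyl mark typical of active enhancers, showed like patterns. Crebbp was at 3.30, 2.47, 1.23 and 1.24 FPKM and Ep300 at 2.09, 1.73, 0.899 and 0.847 FPKM with vehicle, ATRA, SAHA and both. Crebbp stood just short of the mark with SAHA and with both compounds, at -0.95 and -0.94, and Ep300 further from it, at -0.70 and -0.74. After rescaling, Crebbp was at -0.70 with SAHA and at -1.06 with both, and Ep300 at -0.48 and -0.84. The ratio of Crebbp to Ep300 stayed between 1.37 and 1.58 in the 4 libraries. Kat6a, which encodes MOZ, stood at 2.05, 1.57, 1.19 and 1.12 FPKM, and its paralog Kat6b was under 1 FPKM throughout.

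A different order was seen for the acetyltransferases Kat5, Kat7 and Kat8. Kat5, the TIP60 gene, was at 3.23, 3.16, 4.05 and 3.86 FPKM, the only counted acetyltransferase above vehicle with SAHA. Kat7, the HBO1 gene, whose enzyme acts at replication origins, was at 3.55, 3.88, 2.51 and 4.46 FPKM, and Kat8, the MOF gene, at 1.67, 1.60, 1.20 and 2.10 FPKM. For both, SAHA alone gave the lowest value and the combination the highest as deposited. After rescaling the combination was still the highest, but Kat7 and Kat8 were at -0.06 and -0.03 with SAHA, and Kat8 was lowest with ATRA (-0.14). The row of Kat8 shares its locus with Prss8, which was at or near 0 in the libraries. As a group, 7 of 8 counted acetyltransferases were below 0 with SAHA (87.5%, median -0.59) and 5 of 8 with both (62.5%, median -0.53). Of all counted genes, 56.6% and 47.9% were below 0 as deposited, with medians of -0.12 and 0.04. Both acetyltransferase counts were the same after centring and after rescaling. The rescaled shares of all counted genes were 40.4% and 56.6%, so the share with both was near that of all genes on that scale.

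The Brd genes were all on 1 side. With SAHA and with both compounds all 7 Brd genes were below vehicle, under each scaling, with medians of -0.46 and -0.31 as deposited. Of all counted genes, 56.6% and 47.9% were below 0 in these comparisons as deposited, and 40.4% and 56.6% after rescaling. Brd1, which encodes a scaffold subunit that joins HBO1 to chromatin, was at 4.85 FPKM in the vehicle culture and 4.93 with ATRA, and at 1.31 with SAHA and 1.67 with both (chr15:88687035-88734219). Both SAHA cultures thus stood apart from the other two, 3.71-fold and 2.90-fold below vehicle. No other Brd gene passed the mark, and those described next were at -0.48 to -0.33 with SAHA.

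Brd2 and Brd3 encode readers of acetylated histones at active promoters. Brd3 was at 2.23, 1.94, 1.31 and 1.48 FPKM, with vehicle, ATRA, SAHA and both. Brd2 had another pattern: it was at 12.9 FPKM in the vehicle culture, 9.08 with ATRA and 9.16 with SAHA, but at 11.9 with both. Its combination ratio exceeded the sum of the ratios of the single compounds by 0.80 on the log2 scale, and by 0.37 after rescaling. The order of the SAHA and combination libraries turned with the scale, since the rescaled log2 ratios of Brd2 to vehicle were -0.06 with SAHA and -0.31 with both. The SWI/SNF bromodomain genes Brd7 and Brd9 were at 2.30 and 1.70 FPKM with vehicle and at 1.57 and 1.15 with SAHA. Brd8, a subunit of the TIP60 complex, was at 1.60 and 0.891 FPKM, and its row shares 1 locus with Cdc23 and Kif20a, so reads of overlapping genes may be mixed.

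Among SET domain genes, 2 of 8 counted were lower with SAHA (25%, beside 16.0% of all counted genes). After rescaling 1 of 8 was, Setd8, beside 10.8% of all. Setd8 (Kmt5a in RefSeq), which encodes the enzyme that places a single methyl group on histone H4 and is tied to the cell cycle, was at 14.4, 13.2, 4.93 and 9.96 FPKM with vehicle, ATRA, SAHA and both (chr5:124439930-124462307). SAHA alone gave the low value, 2.91-fold below vehicle, and the combination lay between, with a log2 ratio to SAHA of 0.89, or 0.32 after rescaling. Setd2, the main enzyme for the trimethyl mark on histone H3 over transcribed gene bodies, was at 3.48, 2.67, 1.06 and 1.28 FPKM. Both SAHA cultures were low, at log2 ratios of -1.12 and -0.98, so only the first passed the mark. After rescaling these were -0.88 and -1.10, so its side of the mark depends on the scale in both comparisons.

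Setd6 ran the other way. This gene, which encodes a methyltransferase known to act on the NF-kB subunit RelA, was at 2.68 FPKM in the vehicle culture and 2.41 with ATRA, and at 3.46 with SAHA and 7.67 with both compounds (chr8:95715913-95719004). The combination stood alone, 2.87-fold above vehicle, and was the only member value above the mark against vehicle (log2 ratio 1.24, or 1.04 after rescaling). The 4 values rest on about 445, 396, 575 and 1344 fragments. Setd7, which encodes a methyltransferase of histone H3 and of other proteins, failed the filter on its mean but showed a clear split: 1.25 and 1.15 FPKM with vehicle and ATRA, 0.125 and 0.128 with SAHA and both. These are 10.0-fold and 9.77-fold below vehicle, with about 90 and 98 fragments in the SAHA cultures, while the log2 ratio on the FPKM + 1 scale was -1.0 in each, and -0.95 and -1.02 after rescaling. The row of Setd7 shares a locus with 5031434O11Rik, so reads of overlapping genes may be mixed.

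**Figure D3:**
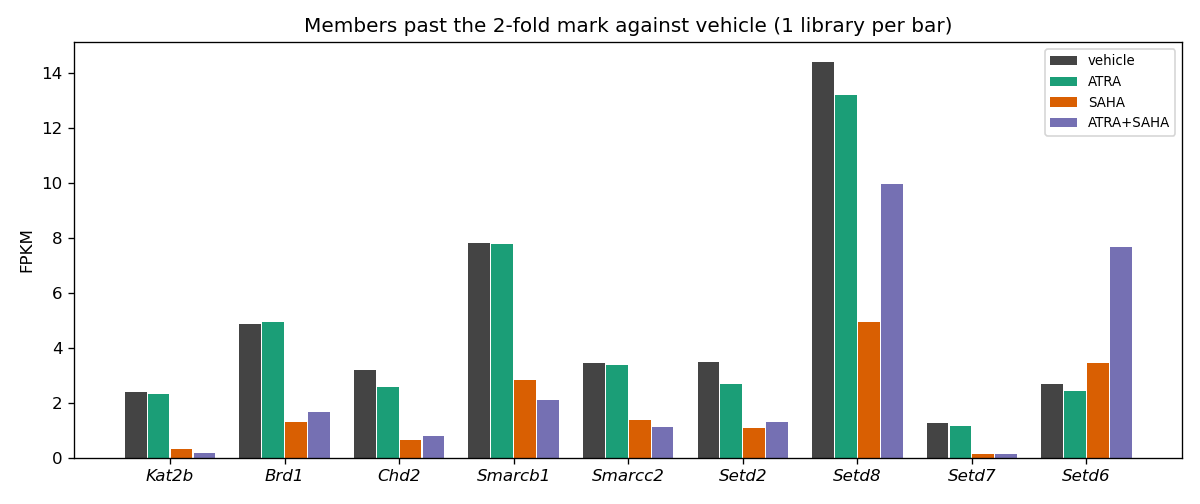
FPKM of the 9 members that reached a log2 ratio of 1 in size against vehicle, with 1 bar per library (grey vehicle, green ATRA, orange SAHA, violet both). Kat2b, Brd1, Chd2, Smarcb1, Smarcc2, Setd2 and Setd7 are low in both SAHA cultures, Setd8 is lowest with SAHA alone, and Setd6 is high with both compounds at 7.67 FPKM.

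Of the other SET domain genes, Setd3, which encodes a methyltransferase of actin, was at 10.1, 10.4, 7.42 and 10.3 FPKM. Setd5 was at 4.24, 3.72, 2.22 and 3.18 FPKM. Setdb1, which encodes a methyltransferase of silent chromatin, was at 2.68, 2.69, 2.39 and 1.93 FPKM, and its row shares a locus with Cers2. Setdb2 was at 0.935, 0.60, 1.24 and 1.70 FPKM, with the combination highest as deposited, and its log2 ratios were 0.46 with SAHA and 0.34 with both after rescaling. Setd1a, a catalytic subunit of COMPASS complexes for methylation at promoters, was at 1.66, 1.44, 1.14 and 1.05 FPKM, and Setd1b lay between 0.0317 and 0.163 FPKM. The SET domain median was -0.36 with SAHA and -0.33 with both, against -0.05 and -0.48 after rescaling.

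The Polycomb methyltransferases parted from this. Ezh2, the catalytic subunit typical of dividing cells, was at 1.08, 1.37, 0.880 and 1.36 FPKM, and Ezh1, typical of resting cells, at 1.42, 1.29, 1.97 and 2.09 FPKM, with vehicle, ATRA, SAHA and both. Neither passed the mark in any of the 5 comparisons. The ratio of Ezh1 to Ezh2 was 1.32 with vehicle and 0.946 with ATRA, against 2.24 with SAHA and 1.54 with both.

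No Kdm gene passed the mark, and the directions were mixed. Of all counted genes, 16.0% were lower and 7.88% higher with SAHA, and 12.6% and 11.1% with both. With SAHA, 8 of 13 counted Kdm genes were below 0 (61.5%, beside 56.6% of all counted genes). With both compounds 6 of 13 were (46.2%, beside 47.9%). The Kdm medians were -0.31 and 0.07. After rescaling these medians were -0.11 and -0.13, so the second turned sign. Kdm4a, which removes methyl marks from histone H3, came nearest to the mark as deposited, at 6.60, 6.75, 2.92 and 4.46 FPKM, a log2 ratio of -0.96 with SAHA. Kdm4b of the same family was at 1.40, 1.46, 2.58 and 2.93 FPKM, higher in both SAHA cultures (0.57 and 0.71). Kdm4a and Kdm4b thus stood on opposite sides of vehicle with SAHA, also after rescaling (-0.63 and 0.89). On the rescaled values Kdm5b and Kdm4b were nearest to the mark, at 0.90 and 0.89.

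A like split was seen between Kdm2a and Kdm2b, which encode paired demethylases, the latter also a subunit of a Polycomb complex. Kdm2a was at 3.25, 2.95, 1.65 and 1.65 FPKM and Kdm2b at 1.19, 1.49, 1.87 and 2.47 FPKM. The first was at its lowest in the SAHA cultures and the second at its highest. The Kdm5 genes encode demethylases of the active promoter mark, and none passed the 2-fold mark. Kdm5b was at 2.78, 2.52, 4.51 and 3.42 FPKM and Kdm5a at 2.03, 2.01, 2.83 and 2.62 FPKM. The row of Kdm5a shares a locus with Ccdc77. The X-linked Kdm5c was at 3.03, 2.88, 2.54 and 3.37 FPKM, and its Y-linked homolog Kdm5d lay between 0.596 and 0.692 FPKM.

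Kdm1a was highest with ATRA and lowest with SAHA, at 6.85, 8.43, 4.23 and 7.21 FPKM, and its relative Kdm1b was at 1.07, 1.04, 1.49 and 1.73 FPKM. Kdm1b shares its locus with Dek, which was lower in the SAHA cultures. Kdm3a and Kdm3b, demethylases of a silencing mark on histone H3, were at 1.66 and 2.02 FPKM with vehicle and at 1.0 and 0.903 with SAHA. Kdm6a and Kdm6b encode demethylases of the Polycomb mark. Kdm6a was at 1.20, 1.38, 0.774 and 0.646 FPKM and Kdm6b at 0.613, 0.585, 0.640 and 0.541 FPKM, so Kdm6a was low in both SAHA cultures and Kdm6b was below 1 FPKM in all. Kdm4c had 1.83 FPKM in the vehicle culture against 1.19 under SAHA.

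In the SWI/SNF complex, low and steady subunits stood side by side. Smarcb1, which encodes the core subunit SNF5 whose loss drives rhabdoid tumours, was at 7.83 FPKM in the vehicle culture and 7.78 with ATRA, and at 2.83 with SAHA and 2.09 with both (chr10:75896769-75921614). Both SAHA cultures were low, 2.77-fold and 3.74-fold below vehicle, and the first value was at -0.88 after rescaling, short of the mark. The scaffold subunit Smarcc2 was at 3.43, 3.36, 1.38 and 1.11 FPKM, with log2 ratios of -0.90 and -1.07. Its paralog Smarcc1, which pairs with it or replaces it, was at 2.54, 2.55, 2.04 and 2.44 FPKM.

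Ratios within a library show this without any scaling between libraries. The ratio of Smarcc2 to Smarcc1 was 1.35 with vehicle and 1.32 with ATRA, but 0.676 with SAHA and 0.454 with both, so the more abundant paralog changed places. The ratio of Smarcb1 to Smarcc1 was 3.08, 3.05, 1.39 and 0.858 in the same order. For the 2 alternative ATPases, Smarca4 (BRG1) was at 5.68, 6.88, 3.86 and 3.77 FPKM and Smarca2 (BRM) at 1.21, 1.42, 1.45 and 1.34 FPKM. Their ratio was 4.71, 4.84, 2.65 and 2.82, with Smarca4 the higher in every library. The row of Smarca2 shares a locus with 4931403E22Rik. These pairs were picked after their values were seen.

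**Figure D4:**
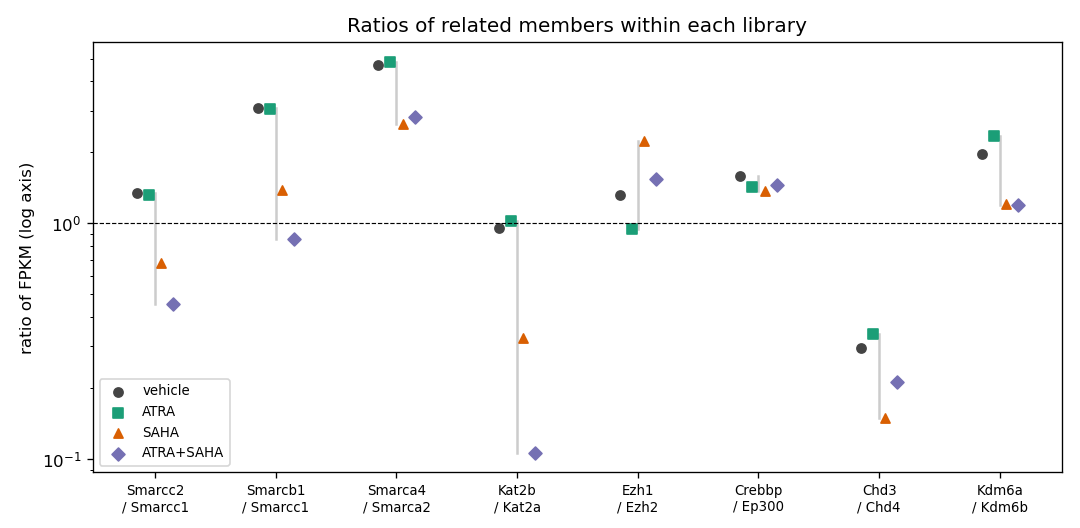
Ratio of FPKM between 2 related members within each library, on a log axis, for 8 pairs, with 1 marker per library and a dashed line at equal levels. The ratios of Smarcc2 to Smarcc1, Smarcb1 to Smarcc1 and Kat2b to Kat2a are lower in both SAHA cultures than with vehicle and ATRA, while Crebbp to Ep300 stays between 1.37 and 1.58.

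The accessory subunits differed among themselves. Smarce1, a DNA-binding subunit, was at 4.92, 5.84, 2.30 and 3.16 FPKM, lower with SAHA by less than the mark (-0.84). Of the 3 alternative Smarcd subunits, Smarcd1 was at 1.14, 1.58, 1.26 and 1.29 FPKM, Smarcd2 at 2.98, 3.74, 3.50 and 5.21 FPKM and Smarcd3 at 0.949, 0.910, 1.93 and 0.862 FPKM. Smarcd2 was highest with both compounds as deposited, but after rescaling it was at 0.52 with SAHA and 0.45 with both. Smarcd3 was highest with SAHA alone on either scale, and it passed the filter on the mean only through that library. Smarcd3 had the highest log2 ratio of any counted member with SAHA, 0.59, and with both compounds it was at -0.07.

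Outside SWI/SNF, Smarca5, the motor of ISWI remodellers, was at 8.68, 9.09, 5.81 and 7.0 FPKM, and its pseudogene row had the same order at 16.2, 17.9, 11.8 and 14.4 FPKM. Smarcad1, a remodeller linked to repair and heterochromatin, was at 1.29, 1.25, 1.02 and 0.591 FPKM, lowest with both. Smarcal1, a helicase of stalled replication forks below the filter, was at 0.813, 0.726, 1.07 and 1.29 FPKM. The Smarc median was -0.33 with SAHA, but 0.01 after rescaling, and -0.22 with both, which rescaling moved to -0.42.

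In the Chd family the motors of the NuRD complex went different ways. Chd4, its main ATPase, was at 13.4, 13.7, 14.4 and 13.4 FPKM with vehicle, ATRA, SAHA and both, values that lie close together as deposited. After rescaling its log2 ratios to vehicle were 0.50 with SAHA and -0.20 with both. Chd3, the alternative ATPase, was at 3.94, 4.63, 2.13 and 2.84 FPKM. The ratio of Chd3 to Chd4 was 0.295, 0.339, 0.149 and 0.211. Chd5, the third of that subfamily, was near 1 FPKM in every library.

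Chd2 was the Chd gene past the mark. It encodes a remodeller that acts at transcribed genes, and was at 3.19 FPKM in the vehicle culture and 2.56 with ATRA, and at 0.656 with SAHA and 0.790 with both (chr7:73426652-73558395). Both SAHA cultures were low, 4.86-fold and 4.03-fold below vehicle. Like Kat2b, Chd2 passed the filter on the mean only through the vehicle and ATRA libraries. Its row shares a locus with 1810026B05Rik, which was also low in those cultures. The related Chd1 was at 2.28, 1.86, 2.15 and 2.06 FPKM. Chd7, the gene mutated in CHARGE syndrome, was at 2.40, 2.04, 0.717 and 0.723 FPKM, just short of the mark at -0.99 and -0.98, and at -1.07 with both after rescaling. Chd7 too passed the filter on the mean only through the vehicle and ATRA libraries. Chd8, a relative of Chd7 known from autism genetics, was at 1.5, 1.18, 1.62 and 1.63 FPKM, and its row shares a locus with Snord8. The Chd median was -0.20 with SAHA and turned to 0.02 after rescaling, and was -0.23 with both.

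ATRA added to SAHA came with few large differences in these genes. In the combination against SAHA alone, 0 of the 58 counted members passed the mark, where 3.04% of all counted genes were higher and 0.929% lower. The median member was at 0.09 and the median gene at 0.14, and after rescaling both were below 0, at -0.33 and -0.32. As deposited, the highest ratios were those of Setd6 (0.96), Setd8 (0.89), Kdm1a (0.65) and Kat7 (0.64), and the lowest those of Smarcd3 (-0.66) and Smarcad1 (-0.35). After rescaling the same 4 genes stood at 0.42, 0.32, 0.10 and 0.14. Smarcd3 was then past the mark at -1.05, the 1 member that was, where 4.56% of all counted genes were lower, and Smarcad1 was at -0.66.

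The combination against ATRA shows the addition of SAHA with none of the libraries of SAHA against vehicle. In the combination against ATRA, 4 of 58 members were lower and 1 higher, where 11.9% of all counted genes were lower and 10.5% higher. Kat2b was at -1.53, Smarcb1 at -1.50, Brd1 at -1.15 and Smarcc2 at -1.05, and Setd6 at 1.35. Kat2b, Smarcb1 and Brd1 were lower in both comparisons, which is 75% of the 4 lower here and 50% of the 6 lower with SAHA against vehicle. Among all counted genes, 803 were lower in both comparisons, which is 78% of the 1029 lower here and 58.1% of the 1381 lower with SAHA. Chd2 was just short of the mark at -0.99. The median member was at -0.25 and the median gene at 0.04.

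Summed over members without the pseudogene row, expression of the 69 genes was 205 FPKM in the vehicle culture and 199 with ATRA, and 141 with SAHA and 169 with both. The acetyltransferase sum was at 0.591 of vehicle with SAHA and 0.728 with both, the Brd sum at 0.602 and 0.727, and the SET domain sum at 0.577 and 0.894. The Kdm sum was at 0.826 and 0.974 and the Chd sum at 0.803 and 0.797. The Smarc sum was at 0.686 and 0.729, while the sum of Ezh1 and Ezh2 was above vehicle, at 1.14 and 1.38. Sums weight the abundant genes, and the SET domain difference between SAHA and the combination is largely that of Setd8, Setd6 and Setd3. The order of the sums depends on the scale: after rescaling the 69 genes were at 0.928 of vehicle with SAHA and 0.705 with both. The rescaled SET domain sums were alike at 0.775 and 0.764, and the Kdm and Chd sums with SAHA moved above vehicle, to 1.11 and 1.08.

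Longer loci had slightly lower ratios. Spearman's rho between the span of the locus and the log2 ratio was taken over the 50 counted members with a locus of their own. It was -0.17 with ATRA, -0.14 with SAHA and -0.26 with both, against -0.17, -0.06 and -0.10 over 6994 counted genes. These are correlations across genes that share the libraries, given as a description.

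Partner genes of the same complexes were read from 9 lists drawn from general knowledge, with 196 of 211 symbols in the table and 143 counted. With ATRA, 0 of the 143 were higher and 1 lower, Sp100, a nuclear body gene with a bromodomain that interferon induces (6.07 FPKM with vehicle, 2.50 with ATRA and 0.0951 with SAHA). With SAHA, 2 were higher and 24 lower, with a median of -0.43. The lower ones are 16.8% of the 143, near the 16.0% of all counted genes, and this background stands beside each list below. With both compounds 8 were higher and 20 lower (5.59% and 14%, beside 11.1% and 12.6% of all), with a median of -0.19. After rescaling, 8 were higher and 13 lower with SAHA (5.59% and 9.09%, beside 16.2% and 10.8% of all counted genes). With both, 4 were then higher and 28 lower (2.8% and 19.6%, beside 7.57% and 15.5% of all). The rescaled medians were -0.16 and -0.36, against 0.19 and -0.12 for all counted genes.

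Polycomb partners had 2 of 22 lower with SAHA (9.09%, beside 16.0% of all counted genes), the E3 ligase pair Rnf2 and Bmi1. Rnf2 was at 8.48, 8.08, 1.33 and 2.21 FPKM and Bmi1 at 5.32, 4.05, 1.23 and 0.824 FPKM. Both were low in both SAHA cultures. Among SWI/SNF partners, 3 of 10 were lower and 1 higher with SAHA, beside 16.0% and 7.88% of all counted genes: Phf10, a subunit of the PBAF form, was at 20.3, 20.4, 3.55 and 5.67 FPKM, Bcl7b and Actb were at -1.18 and -1.40, and Dpf1, the neuronal counterpart of Phf10, was at 0.324, 0.326, 1.95 and 2.70 FPKM. Dpf1 passed the filter only through the SAHA cultures, in which it was high, so its place among the counted partners follows from the difference itself. After rescaling Phf10 was the 1 lower partner of this list (10%, beside 10.8% of all counted genes), with Bcl7b and Actb at -0.93 and -0.97.

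NuRD and corepressor partners had 5 of 20 lower and 1 higher with SAHA (25% and 5%, beside 16.0% and 7.88% of all counted genes). After rescaling 2 were lower and 3 higher (10% and 15%, beside 10.8% and 16.2% of all). Mta3, a NuRD subunit, was at 4.70, 5.09, 0.855 and 1.13 FPKM, and Tbl1x, of the nuclear receptor corepressor complex, at 8.94, 7.89, 2.11 and 3.63 FPKM. Sin3b, a scaffold for deacetylases, was the higher one, at 8.25, 10.5, 23.6 and 31.1 FPKM. Its paralog Sin3a was at 3.80, 3.81, 8.14 and 9.54 FPKM, past the mark with both compounds as deposited (1.13) and with SAHA alone after rescaling (1.31, with 0.93 for both). Sin3a and Sin3b were thus high in the same cultures in which Mta3 was low. The corepressor genes Ncor1, Rcor2 and Tbl1xr1 went the other way from Sin3a and Sin3b, at -1.15, -1.10 and -1.12 with SAHA. After rescaling they were at -0.85, -0.86 and -0.91, short of the mark. Tbl1xr1 was below 1 FPKM in both SAHA cultures and passed the filter on the mean only through the vehicle and ATRA libraries.

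Remodeller partners of the ISWI, INO80 and SRCAP complexes had 5 of 20 lower with SAHA: Baz1a, Baz1b, Bptf, Ino80c and Atrx, at -1.28 to -1.06. These are 25% of the list, beside 16.0% of all counted genes. After rescaling 1 of the 20, Baz1a, was lower (5%, beside 10.8% of all). With both compounds 1 was higher and 4 lower (5% and 20%, beside 11.1% and 12.6% of all counted genes). On the rescaled values 1 was higher and 5 lower (5% and 25%, beside 7.57% and 15.5% of all). The higher one was the ATPase gene Ruvbl2 at 7.92, 10.1, 12.2 and 25.6 FPKM. Arginine methyltransferases had 2 of 8 lower with SAHA, Carm1 and Prmt3, and acetyltransferase partners 1 of 33, Ing5. Lysine methyltransferase partners had 2 of 15 lower, Smyd2 and Smyd5, with Rbbp5, a COMPASS subunit, higher with both at 1.03 as deposited and short of the mark at 0.83 after rescaling. Other bromodomain proteins had 3 of 11 lower with SAHA, Sp100, Zmynd11 and Zmynd8, and JmjC proteins outside the Kdm symbols 1 of 5, Phf2. All these counts stand beside 16.0% of all counted genes lower with SAHA. Prmt3 and Smyd5 were short of the mark after rescaling (-0.77 and -0.93). Sp100, Zmynd11, Zmynd8, Phf2, Ing5, Baz1a, Bptf and Ino80c were below 1 FPKM in both SAHA cultures. They passed the filter on the mean only through the vehicle and ATRA libraries, in which they were high.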

How the data were processed

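Per the labels' protocols, ribosomal RNA was removed from total RNA of 4 cultures ahead of the library step. Per the submitters' processing notes, the authors used Trimmomatic 0.32, Cuffdiff and the mm10 build. For read alignment, annotation, strand setting and scaling across libraries, the sources used here give nothing. Values were deposited as FPKM, 1 column per library, per the file headers.

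Members were selected by symbol. One of them is included in counts, medians and sums but is not reported here by itself. Ratios used log2(FPKM + 1), genes were kept when their mean over all libraries reached 1 FPKM, and the mark was a log2 ratio of 1 in size. No test was run, since each group has 1 library. Depth was estimated for genes with 1 GENCODE M21 transcript of 1000 to 4000 bases. It used the median of FPKM times transcript length inside a window of low values set in advance, on which the estimate depends. Fragments per member use the longest coding transcript and are approximate. Table starts count from 0: 21 of 26 plus strand members matched RefSeq starts after adding 1, and 0 without. Coordinates are printed from 1. The calling rule was run on simulated data, with changes well past the mark planted in more abundant genes and an assumed noise. That run cannot give the error of calls near the mark or at low FPKM.

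Named members were the 12 highest and 12 lowest past the mark against vehicle, the 6 highest and 6 lowest in the other comparisons, and a fixed set of main family members. Up to 4 leading genes per partner list were also allowed. Other members and partner genes were named to account for the families and lists, after their values were seen. The members and lists were chosen with earlier results of these data known. Alternatives were a pseudocount of 0.1 FPKM, no filter, a mean of at least 5 FPKM, centring on the median gene, and rescaling outside the 10 highest rows. Values were computed with Python 3.11.15, numpy 2.4.6 and pandas 2.3.3.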

Additional observations from a re-analysis of the deposited data

Results flagged for a closer look

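Setd6 was marked because ATRA went with opposite differences in the absence and presence of SAHA. Its log2 ratio was -0.11 for ATRA against vehicle and 0.96 for the combination against SAHA. The combination's log2 ratio to vehicle exceeded the 2 single-compound ratios added together by 1.07. After rescaling outside the 10 highest rows the directions held, at -0.24 and 0.42, and the excess was 0.65. Each value rests on single libraries, and the difference between the ratios was not tested.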

How the results depend on the processing

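No paired analysis was possible because each group has 1 library. With a pseudocount of 0.1 FPKM, 14 members were lower with SAHA (median -0.51), where 22.6% of all counted genes were. Against vehicle the combination then had 2 higher and 10 lower (median -0.41), with 17.2% and 18% of all counted genes. Against SAHA it had 1 higher and 1 lower (5.69% and 2.15% of all), and against ATRA 2 higher and 7 lower (16.4% and 17.7% of all, median -0.36). With no filter the combination median was -0.18. A mean of at least 5 FPKM left 10 members: 2 were lower with SAHA (median -0.48, with 20.1% of all genes at that filter), 0 higher and 1 lower in the combination against vehicle (17% and 13.8% of all), and 0 and 1 against ATRA (14.7% and 14.2%), with a median of 0.31 for the combination against SAHA. The filter itself left fewer genes to count. Centring on the median gene gave a member median of -0.25 with SAHA and -0.06 for the combination against SAHA, where the sign turned. Rescaling outside the 10 highest rows gave medians of -0.14 with ATRA, -0.08 with SAHA, -0.43 for the combination against vehicle and -0.33 against SAHA, where the sign turned. It gave 8 lower members for the combination against vehicle and 1 lower against SAHA, Smarcd3. Of the 17 single member differences past the mark in the 5 comparisons, 17 stayed past it with a pseudocount of 0.1 FPKM, 16 after centring and 15 after rescaling. Setd2 with SAHA was at -1.0 after centring, just short of the mark before rounding, and Setd2 and Smarcb1 with SAHA were at -0.88 after rescaling. Of all counted genes past the mark with SAHA, 33.0% were higher as deposited, 43.2% after centring and 60.1% after rescaling, and for the combination against SAHA 76.6%, 63.2% and 24.1%. For the combination against vehicle the share was 46.7% as deposited and 32.8% after rescaling. Each condition has 1 library, and the scale moves these values as given above. By the rough depth estimate, the lowest member values named past the mark rest on about 72 to 139 fragments. Fragments were not estimated for the partner genes.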
